A study of Physcomitrium patens with 4 samples.

Results

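The pubs hy2 double mutant of the moss Physcomitrium patens was compared with wild type after 1 hour of red light, with 1 messenger RNA library on each side. The comparison used 30795 singly mapped genes of 32273 genes in all, chosen because under 10% of their reads mapped to several places in both red light libraries. Of these, 17812 had at least 50 reads in the 2 libraries together and are called measured. The other 12983 were too shallow to compare, and 7420 of them had no read in either library.

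Both genotypes were of the Gransden2004 ecotype and were sampled as chloronema of 10-day-old protonema. The plants spent 3 days in the dark, and the red light had a wavelength of 660 nm and a fluence rate of 5 μmol per m2 and s, at a temperature of 25 °C. Wild type and pubs hy2 libraries from the dark, called time 0 controls in the labels, were used to describe the genes further. No library was kept dark for the hour of red light, so effects of light and of elapsed time cannot be told apart in any red light against dark value. How the mutant line was made, and whether more than 1 line or culture was sampled, is not given in the sources used here.

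Phytochromes are photoreceptors that switch between a red-absorbing and a far-red-absorbing form, and in plants they set gene expression and growth in response to red light. They need a linear tetrapyrrole, or bilin, as chromophore. PUBS and HY2 are ferredoxin-dependent bilin reductases that make such bilins, and the labels describe the double mutant as phytochrome-deficient. Protonema is the filamentous stage of a moss, and chloronema is its chloroplast-rich cell type. The genes carry identifiers that no source used here pairs with names, so neither the rows of PUBS and HY2 nor markers of chloronema were checked, and genes are described by level, length, response and order of identifiers.

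The wild-type red light library held 24560044 reads on genes and the pubs hy2 one 22975721. The dark libraries of the same genotypes held 17560594 and 15098942. Folds were scaled by library size with TMM factors (trimmed mean of M values), which were 1.02 for wild type and 0.973 for pubs hy2 in red light. With 1 library a side there was no test of this difference. A gene was counted as higher or lower when it differed at least 2-fold and 1 lay outside the exact 95% counting interval of its fold. These intervals cover the counting error of reads only, and the counts describe libraries.

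Genotype differences in red light were frequent, and the large ones were almost all in 1 direction. In pubs hy2, 2703 singly mapped genes were higher, 15.2% of those measured, and 1803 were lower, 10.1%. The 2 directions parted with the size of the difference. At 4-fold 1106 genes were higher and 224 lower, at 8-fold 556 and 34, and at 16-fold 300 and 8. Of the genes at 64-fold or more, 62 were higher and 1 was lower. The TMM scaling sets the middle of the distribution near 0, and the median log2 fold of the measured genes was -0.04. The 5th percentile was -1.34 and the 95th percentile 2.28, so the upper tail was the longer one. On the same scale the dark pair, which shares no library with the red light pair, had a 5th percentile of -1.37 and a 95th of 2.10 over 17133 of these genes. Both pairs had the longer tail on the side of pubs hy2.

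**Figure D1:**
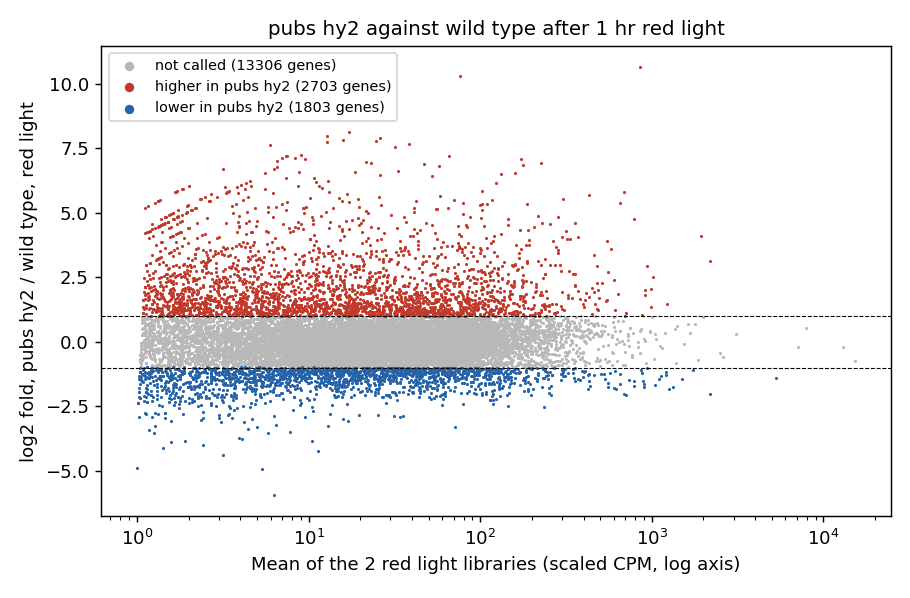
Each point is 1 of the 17812 measured singly mapped genes, placed by the mean of the 2 red light libraries in CPM, reads relative to the TMM-scaled library size (log axis), and by the log2 fold of pubs hy2 over wild type. The 2703 higher genes reach far above the dashed 2-fold lines, while most of the 1803 lower genes lie close below.

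The higher genes made up a larger part of the mutant library than of the wild-type one. They held 20.1% of the reads on genes in the pubs hy2 red light library and 5.36% in the wild-type one. The 300 genes at least 16-fold higher held 2.78% and 0.0974%. The lower genes held 5.48% of the reads in pubs hy2 and 15.2% in wild type. These shares describe the 2 libraries that chose the genes. In the dark libraries, which did not choose them, the higher genes held 21.0% of the reads in pubs hy2 and 6.67% in wild type. There the lower genes held 4.81% and 10.9%.

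Differences were most frequent at both ends of the expression range. When measured genes were put in 5 equal groups by mean level, 43.1% of the lowest group were called, 16.4% of the middle group and 25.1% of the highest group. The median number of reads over the 2 libraries was 136 in the lowest group, 1102 in the middle and 4923 in the highest. The part of counting error in these shares was not tested. The 8-fold higher genes were found at every level, with 245 in the lowest group, 56 in the middle and 103 in the highest. Of the 34 genes at least 8-fold lower, 25 were in the lowest group and 1 in the highest. By gene length, 33.8% of the shortest group (0.063 to 1.044 kb) and 19.5% of the longest group (2.66 to 15.78 kb) were called. The shortest group had a median of 425 reads over the 2 libraries and the longest 1724.5, and the part of read number in this difference was not tested.

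The highest fold belonged to Pp1s25_135V6, a gene of 0.77 kb that was also among the most abundant in the mutant. It had 35 reads in wild type in the dark, 26 in wild type in red light, 19445 in pubs hy2 in the dark and 37967 in pubs hy2 in red light. Both pubs hy2 libraries were far above both wild-type libraries. In red light it was 1630-fold higher in pubs hy2 (interval 1112 to 2496). In the authors' RPKM, which corrects for length, its level was 1.20 for wild type and 1909 for pubs hy2 in red light. Pp1s136_219V6 had 8 reads in wild type in the dark, 0 in wild type in red light, and 2478 and 3405 in pubs hy2 in the dark and in red light. Against a floor of 3 counts in the wild-type red light library, its fold in red light was 1267, with a counting interval that began at 1030 and has no upper end, so it may exceed that of Pp1s25_135V6.

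The other 6 of the 8 highest folds lay between 245.0-fold, for Pp1s69_241V6, and 319.3-fold, for Pp1s38_321V6, where Pp1s49_223V6, with 0 reads in wild type in red light, had 284.7 against the floor and an interval that began at 231.0. They also included Pp1s58_90V6, Pp1s3_147V6 and Pp1s163_137V6. All 8 were called higher in pubs hy2 in the dark as well, by 20.3-fold to 696.4-fold. The wild-type dark library had 0 to 35 reads of these genes and the wild-type red light library 0 to 26. In pubs hy2, 1 of the 8 was called between red light and dark, Pp1s58_90V6. This gene of 0.252 kb had 0 reads in wild type in the dark, 1 in wild type in red light, 57 in pubs hy2 in the dark and 266 in pubs hy2 in red light. The other 7 had light folds between 0.613 and 1.46 in pubs hy2.

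Genes at the other end had a different profile over the 4 libraries. The lowest fold was that of Pp1s55_88V6 (1.551 kb), with 0 reads in the dark in wild type, 308 in wild type in red light, 0 in pubs hy2 in the dark and 4 in pubs hy2 in red light. The wild-type red light library alone was high. The fold of pubs hy2 over wild type in red light was 0.0145 (0.00393 to 0.0375). Pp1s118_235V6 (0.957 kb) gave 18 and 540 reads for wild type and 10 and 25 for pubs hy2, in the dark and in red light, and again the wild-type red light library stood alone. Its fold in red light was 0.0517 (0.0332 to 0.0771), against 0.696 (0.287 to 1.59) in the dark.

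Pp1s104_134V6 (2.958 kb) was low in both pubs hy2 libraries. It gave 82 and 115 reads for wild type and 0 and 6 for pubs hy2, with a red light fold of 0.0583 (0.0209 to 0.131). Pp1s4_10V6 (0.553 kb) gave 106 and 259 reads for wild type and 24 and 7 for pubs hy2, a red light fold of 0.0302 (0.0120 to 0.0631). It was lower in pubs hy2 in both light conditions and lowest in red light. The remaining 4 of the 8 lowest, Pp1s16_283V6, Pp1s202_32V6, Pp1s98_239V6 and Pp1s28_164V6, had 49 to 151 reads in wild type in red light and 1 to 6 in pubs hy2. Of all 8, 4 were called higher in red light than in the dark in wild type, and 3 were called lower in pubs hy2 in the dark. These 3 were the only ones of the 8 with at least 50 reads in the dark pair. The rest were not measured there.

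**Figure D2:**
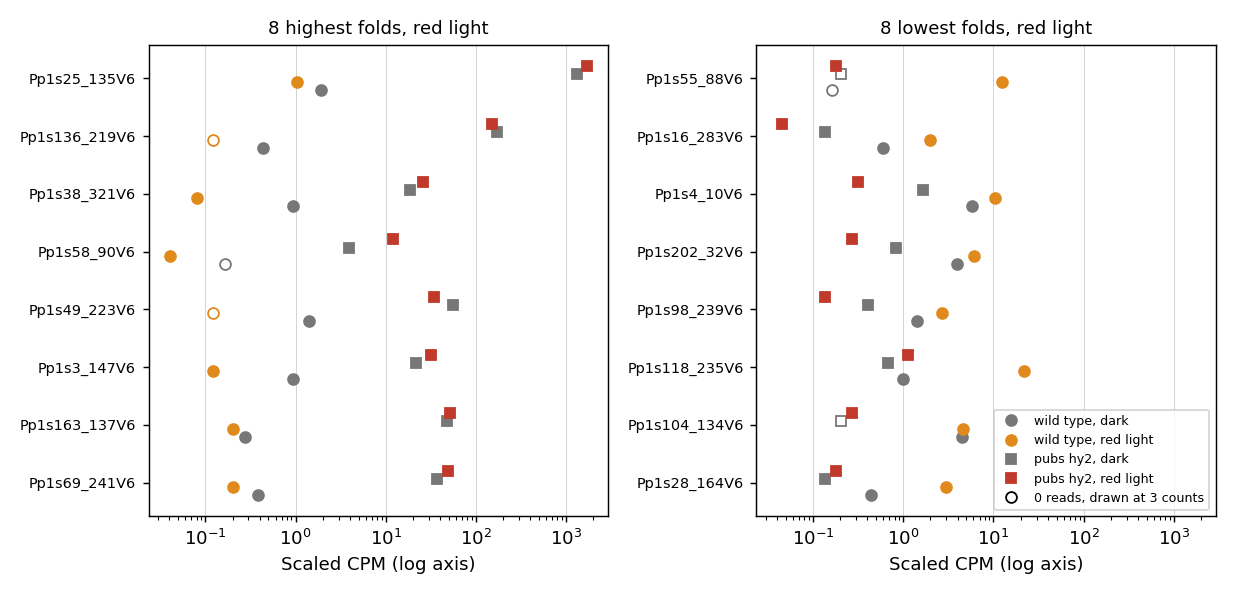
Levels of the 8 genes with the highest and the 8 with the lowest red light fold in each of the 4 libraries, in TMM-scaled CPM on a log axis. Circles are wild type, squares pubs hy2, and open symbols are libraries with 0 reads, drawn at 3 counts. In the left panel both pubs hy2 libraries lie to the right of both wild-type libraries, and in the right panel the wild-type red light library lies furthest to the right for every gene.

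Many genes of the longer lists were also called in the same direction in the dark. Of the genes higher in red light, 63.1% (1705 of 2703) were also called higher in the dark, where 13.2% of measured genes were. Among those at least 4-fold higher it was 887 of 1106 (80.2%), and at 64-fold it was 58 of 62 (93.5%). Of the lower genes 42.0% (758 of 1803) were also called lower in the dark, where 10.2% of measured genes were, and of those at least 4-fold lower 112 of 224. Genes not measured in the dark, 209 of the higher and 153 of the lower ones, count as not called in the shares of red light genes. The shares of 13.2% and 10.2% leave such genes out. The dark pair gave the same direction, past the limits or not, for 92.2% of 2494 higher genes and 91.4% of 1650 lower genes that were measured there, while 45.8% of all genes measured in both pairs lay above 0. The median log2 fold of the higher genes was 1.73 in red light and 1.48 in the dark, and that of the lower genes -1.34 and -0.92. Genes picked by their fold in 1 pair tend to lie closer to 0 in another.

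**Figure D3:**
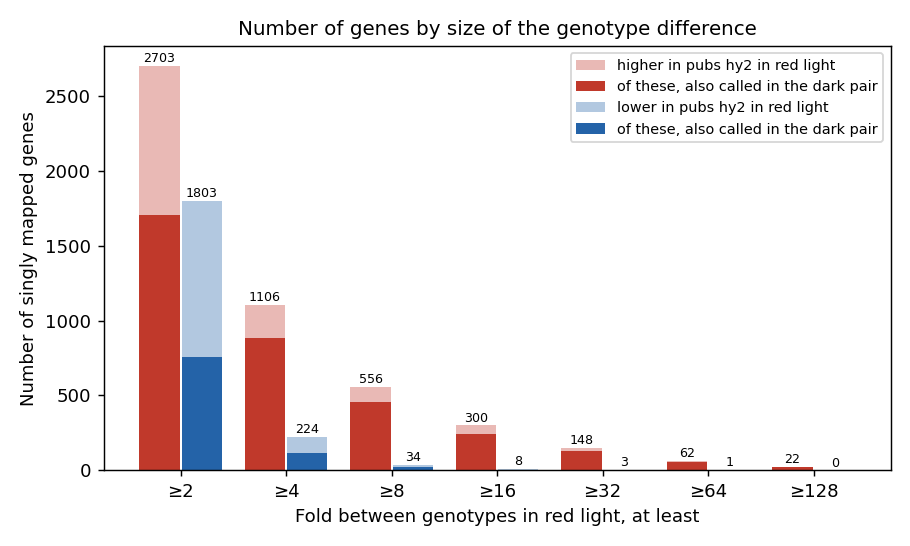
Number of singly mapped genes higher (red) or lower (blue) in pubs hy2 in red light, by the least size of the fold, with the part also called in the same direction in the dark pair in full colour. Counts in red light are printed above the bars. The higher genes fall from 2703 to 22 and the lower genes from 1803 to 0.

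The most abundant genes that differed mostly did so in both light conditions. Among higher genes, the largest RPKM in pubs hy2 in red light was that of Pp1s71_207V6 (1.479 kb), with RPKM values of 217.1 and 268.7 for wild type and 2284 and 2280 for pubs hy2, in the dark and in red light. Its light fold was 1.29 for wild type and 0.999 for pubs hy2, and it was 8.70-fold higher in pubs hy2 in red light (8.53 to 8.88). Pp1s257_73V6 had 158.5 and 111.2 RPKM for wild type and 2019 and 1839 for pubs hy2, a red light fold of 17.0 (16.5 to 17.4). Pp1s404_1V6 was 27.0-fold higher in red light (25.6 to 28.5), with 60.5 RPKM for wild type and 1593 for pubs hy2. Pp1s141_102V6 had 93.4 and 273.4 RPKM for wild type and 1038 and 1112 for pubs hy2. In this gene the genotypes were closer in red light, with a fold of 4.17 (4.08 to 4.27) against 11.9 (11.4 to 12.4) in the dark, and the wild-type level was 3.06-fold higher in red light than in the dark.

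Among lower genes the most abundant was Pp1s52_261V6 (0.8 kb), with RPKM values of 6515 and 8476 for wild type and 2560 and 3130 for pubs hy2. Both wild-type libraries were above both pubs hy2 libraries, and its red light fold was 0.379 (0.376 to 0.382). Pp1s319_5V6 had 3574 and 3300 RPKM for wild type and 524.8 and 798.0 for pubs hy2, and in red light it was 4.03-fold lower in pubs hy2. Pp1s350_28V6, Pp1s76_119V6 and Pp1s21_318V6 were 2.52-fold, 2.86-fold and 2.28-fold lower in red light. In the dark, Pp1s350_28V6 and Pp1s21_318V6 were below the 2-fold limit, with folds of 0.659 and 0.541, and the other 3 were called lower. None of these 5 abundant lower genes was called between red light and dark in either genotype, and their light folds were 0.966 to 1.99 in wild type and 0.857 to 1.94 in pubs hy2.

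Some genes read in pubs hy2 gave no read in wild type in red light, while no measured singly mapped gene had 0 reads in the mutant library. Of the measured genes, 59 had 0 reads in wild type in red light and 50 to 3405 in pubs hy2, with a median of 77. Such a gene is measured only through its pubs hy2 reads, so the limit of 50 reads sets the lowest value and raises the median. A count of 0 allows up to 3 counts, or 0.120 scaled CPM, in that wild-type library. In the wild-type dark library 39 of the 59 also had 0 reads and the others at most 26. In pubs hy2 in the dark they had at least 7 reads, with a median of 56. These genes were short, with a median length of 0.528 kb against 1.78 kb for all measured genes. Short genes had fewer reads in general, and the part of read number in this difference was not tested. The 34 genes at least 8-fold lower in pubs hy2 had 1 to 294 reads in the mutant.

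**Figure D4:**
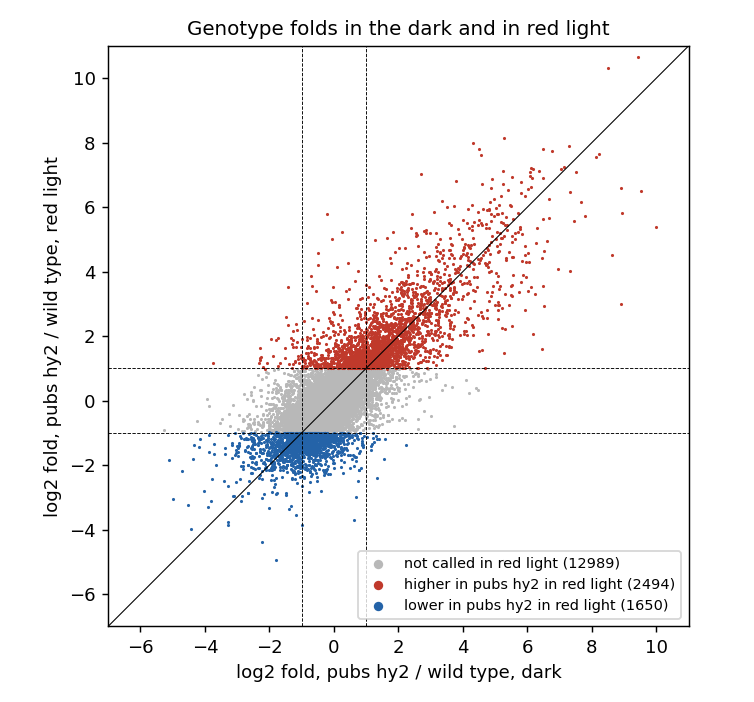
Log2 fold of pubs hy2 over wild type in the dark (horizontal) and in red light (vertical) for the 17133 singly mapped genes measured in both pairs of libraries. Dashed lines mark 2-fold and the solid line equal folds. The 2494 higher genes mostly follow the solid line, and the 1650 lower genes cluster near the 2-fold lines.

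A call in red light without one in the dark does not show that the 2 differ, so the genotype fold in red light was divided by that in the dark. Genes called in red light whose ratio was at least 2 in the same direction, with a 95% counting interval on the log scale that excluded 1, are termed red-dependent. There were 608 that were higher, 3.41% of measured genes and 22.5% of the higher genes. Another 385 were lower, 2.16% of measured genes and 21.4% of the lower genes. Of the 608, 179 (29.4%) were also called higher in the dark, 43 (7.07%) lower, and 57 (9.38%) were not measured there. Of the 385, 27 (7.01%) were also called lower in the dark, 14 (3.64%) higher, and 59 (15.3%) were not measured there. Over all genes measured in the dark pair, 13.2% were higher and 10.2% lower. Conversely, 5.99% of the higher genes and 4.16% of the lower genes had a genotype difference at least 2-fold smaller in red light than in the dark. All these genes were picked by their red light fold, which by itself favours the larger difference in red light. These shares therefore do not show in which light condition genotype differences were larger. Of 2260 genes higher in the dark, 555 were not called higher in red light, and for 222 of these the ratio itself passed the limits. Of 1746 genes lower in the dark it was 988 and 419.

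Red-dependent differences were mostly accompanied by a light difference in wild type. Of the 608 higher genes, 335 (55.1%) were called lower in red light than in the dark in wild type, where 5.03% of the measured genes were, and 87 (14.3%) were called higher in pubs hy2, where 4.05% were. Their median log2 light fold was -1.35 for wild type and 0.37 for pubs hy2. Of the 385 lower genes, 217 (56.4%) were called higher in red light than in the dark in wild type, where 5.88% of measured genes were, and 65 (16.9%) were called lower in pubs hy2, where 1.64% were. Their median log2 light fold was 1.19 for wild type and -0.50 for pubs hy2. In 22 of the higher and 9 of the lower genes both genotypes were called, in opposite directions. In 49 of the lower genes both were called higher in red light, by more in wild type. The ratio is made of the same 4 libraries as the light folds, so these shares describe how the differences are composed and are no separate evidence for them. In 208 higher and 112 lower genes no light difference was called in either genotype.

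**Figure D5:**
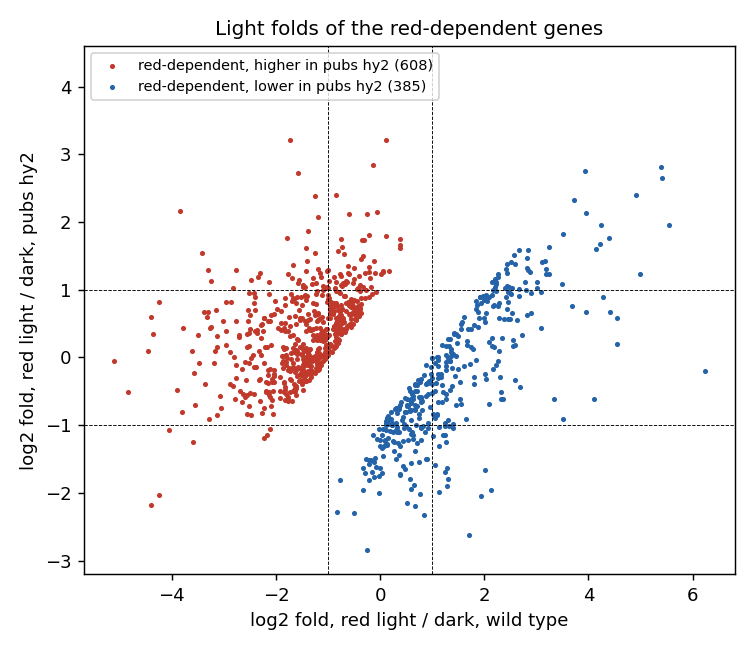
Log2 fold of red light over dark in wild type (horizontal) and in pubs hy2 (vertical) for the 608 higher (red) and 385 lower (blue) red-dependent genes, with dashed lines at 2-fold. Most points spread sideways, with 335 higher genes called lower in wild type and 217 lower genes called higher in wild type.

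The share of red-dependent genes also differed between the tails. Among genes at least 4-fold lower in pubs hy2 it was 48.7% (109 of 224), and among those at least 4-fold higher 27.8% (308 of 1106). Of the 224 lower genes, 99 (44.2%) were called higher in red light than in the dark in wild type, and none was called lower. Of the 1106 higher genes, 207 (18.7%) were called lower in wild type and 54 (4.88%) higher. The wild-type red light library enters both folds, so a high or low value in it moves both. The ratio also needs an interval that excludes 1, which genes with few reads in a library may not reach. Pp1s22_334V6, with 0 reads in wild type in red light, had a ratio of 10.8 (0.572 to 203). The part of read number in the difference between the tails was not tested.

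Among genes with over 3 reads in a dark library and a dark fold within 1.5 of 1, the highest ratio was that of Pp1s53_125V6 (1.256 kb). It gave 57 and 5 reads for wild type and 39 and 271 for pubs hy2, without and with red light. The genotypes did not differ beyond counting error in the dark, while in red light wild type was lower and pubs hy2 higher than in the dark, with a red light fold of 60.5 (25.6 to 187.9) and a dark fold of 0.858 (0.556 to 1.31). Pp1s49_2V6 (0.965 kb) gave 115 and 7 reads for wild type and 110 and 254 for pubs hy2, a red light fold of 40.5 (19.4 to 101.8). Pp1s9_28V6 and Pp1s54_286V6 had 48 and 63 reads in wild type in the dark, 3 and 2 in wild type in red light, 27 and 48 in pubs hy2 in the dark and 74 and 71 in pubs hy2 in red light. In all 4 of these genes the wild-type red light library stood lowest.

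In the opposite direction, under the same limits, the lowest ratio was that of Pp1s118_235V6, given above. Pp1s189_85V6 (1.737 kb) gave 19 and 58 reads for wild type and 19 and 7 for pubs hy2, a red light fold of 0.135 (0.0519 to 0.296). Pp1s232_61V6 (0.222 kb) gave 17 and 58 reads for wild type and 12 and 5 for pubs hy2, a red light fold of 0.0962 (0.0301 to 0.238). In both, wild type was called higher in red light than in the dark. The pubs hy2 light folds were 0.241 (0.0856 to 0.599) for Pp1s189_85V6 and 0.273 (0.0752 to 0.831) for Pp1s232_61V6. These pubs hy2 pairs had too few reads to count as measured, so no call was made. The dark pairs of both genes and of Pp1s118_235V6 were not measured either, so their ratios rest on shallow dark folds. Pp1s72_21V6 (0.24 kb) gave 43 and 49 reads for wild type and 49 and 10 for pubs hy2, so there the mutant red light library alone was low.

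In 57 of the 17133 genes measured in both pairs, the genotype difference was called in both light conditions but in opposite directions. Of these, 14 were lower in pubs hy2 in red light, 0.776% of the genes lower there. The other 43 were higher in pubs hy2 in red light and lower in the dark, 1.59% of the genes higher in red light. The 4 with the largest opposite folds were all of this kind. Pp1s60_109V6 (2.032 kb) gave 166 and 23 reads for wild type and 39 and 81 for pubs hy2, with a dark fold of 0.294 (0.202 to 0.420) and a red light fold of 3.93 (2.45 to 6.55). Pp1s189_93V6, Pp1s48_171V6 and Pp1s150_19V6 had red light folds of 3.83, 3.72 and 3.19 and dark folds of 0.251, 0.281 and 0.201. In each of the 4, wild type was higher than pubs hy2 in the dark and lower in red light.

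A test was possible only for a genotype difference common to both light conditions, with 2 libraries per genotype and 1 residual degree of freedom. In edgeR's quasi-likelihood fit of genotype and light, 13.8% of 19232 singly mapped genes were higher in pubs hy2 and 8.85% lower at a Benjamini-Hochberg adjusted p under 0.05. Of 2698 genes higher in red light that entered this fit, 1861 (69.0%) passed as higher, and of 1797 lower genes 933 (51.9%) passed as lower. Of the red-dependent genes, 180 of 608 (29.6%) and 39 of 381 (10.2%) passed. The fit includes the red light libraries that chose the genes, so these shares are descriptions. With 1 library per group, the spread left in the fit is the change of the genotype difference between light conditions. Red-dependent genes were chosen for a large change, so their lower shares follow in part from how the fit is built. Of the 8 highest folds, all 8 passed, with adjusted p from 0.0009065 to 0.008968. Of the 8 lowest, 6 entered the fit and 3 of these passed, Pp1s4_10V6 with adjusted p = 0.04496, Pp1s202_32V6 with 0.02977 and Pp1s104_134V6 with 0.01991. Pp1s55_88V6 and Pp1s28_164V6 did not enter the fit. Separate cultures are not stated in the labels, and the p-values therefore cover only the spread among these 4 libraries, which may in part be technical.

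Called genes with consecutive identifiers often shared their direction. The identifiers were read as a scaffold number and a gene number, without coordinates to check that consecutive numbers are neighbouring genes. In this reading, 6099 pairs of measured singly mapped genes had consecutive numbers on 1 scaffold. When the first gene of a pair was higher in pubs hy2 in red light (788 pairs), the second was higher in 25.5%, against 13.0% of second genes over all pairs, and lower in 6.22%. When the first was lower (604 pairs), the second was lower in 21.0%, against 10.1% over all pairs, and higher in 6.62%. Runs were short. Among higher genes there were 181 runs of 2 and 10 runs of 3, among lower genes 107 and 10, and no run was longer. No strand-keeping step is stated for the libraries, so reads of genes that overlap cannot be told apart, and their part in these pairs was not tested.

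The 2 runs of 3 with the largest folds were both far higher in pubs hy2 in both light conditions. Pp1s22_333V6 gave 828 and 322 reads for wild type and 7905 and 13283 for pubs hy2, a red light fold of 46.1 (41.2 to 51.6). The genes with the identifiers before and after it, Pp1s22_332V6 and Pp1s22_334V6, were 28.6-fold and, against the floor, 43.5-fold higher in red light. The interval of the latter began at 34.9. Pp1s279_13V6, Pp1s279_14V6 and Pp1s279_15V6 had 0 reads each in wild type in the dark and 4, 0 and 4 in red light. In pubs hy2 they had 145, 95 and 103 reads in the dark and 111, 117 and 97 in red light. Runs of lower genes had smaller folds. Pp1s390_17V6, Pp1s390_18V6 and Pp1s390_19V6 were 5.37-fold, 4.12-fold and 3.22-fold lower in red light, and Pp1s54_230V6, Pp1s54_231V6 and Pp1s54_232V6 were 2.66-fold, 7.39-fold and 3.35-fold lower.

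The 2-fold limit cut through a dense range of values. Pp1s130_226V6, with a fold of 2.0004, lay just inside it and Pp1s197_162V6, with 1.9996, just outside. On the lower side Pp1s99_56V6, with 0.49992, lay just inside, and Pp1s403_1V6 just outside.

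When all genes were taken, 2924 of 18868 measured genes were higher (15.5%) and 2011 lower (10.7%). Of 258 measured genes whose reads were 90% or more multi-mapping in a red light library, 76 were higher (29.5%) and 70 lower (27.1%), together 56.6%. They made up 16 of the 50 largest folds in either direction but 1.37% of measured genes. The values of these genes depend on how shared reads were assigned. The highest fold among them was that of Pp1s292_31V6, with 0 reads for wild type and 4773 for pubs hy2 in red light, followed by Pp1s219_6V6 with 0 and 1492. The lowest were those of Pp1s365_24V6, with 5207 and 0 reads, and Pp1s85_186V6, with 2739 and 0.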

How the data were processed

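Per the file headers, the authors deposited for each of 32273 genes an estimated count of reads, an RPKM value, a gene length in kilobases and the fraction of its reads that map to several places. Of the estimated counts above 0, 93.5% in wild type and 93.8% in pubs hy2 in red light were exactly whole, and all were rounded here. The reads on genes fell short of the total implied by the authors' RPKM by 12.6% in wild type and 11.0% in pubs hy2 in red light. The aligner, the genome build and the sharing out of multi-mapping reads are not given in the sources used here. Poly-A RNA, per the labels' protocols, was fragmented, copied by random priming and amplified by 18 PCR cycles, without molecular identifiers, so intervals and floors cover counting error only.

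Groups were taken from the labels, with 1 library each. Reads were scaled by library totals times TMM factors from all 4 libraries (edgeR 4.0.16, R 4.3.3). Fold intervals were Clopper-Pearson intervals of the share of reads. Counts of 0 were set to a floor of 3 counts for folds and rankings, 0.120 scaled CPM in wild type and 0.134 in pubs hy2 in red light. Log2 folds otherwise had 0.5 added to each count, as had the ratios of folds. The additive fit used edgeR's expression filter and Benjamini-Hochberg adjustment over all genes of the fit. DESeq2 1.42.0 and limma 3.58.1 gave alternatives. Intervals, counts and plots came from Python 3.11.15 (scipy 1.17.1, numpy 2.4.6, pandas 2.3.3, matplotlib 3.10.9). On simulated red light libraries with counting error, the size rule recovered 100 of 100 genes changed 2.5-fold and 100 of 100 changed 4-fold, with 14 false calls among 18860 genes. On simulated sets with a coefficient of variation of 0.2, the additive fit recovered 85 of 100 and 100 of 100, with 11 false calls among 20332 genes. The genes changed for the additive fit averaged over 100 reads per library, and no light effect was simulated. Its recovery therefore does not cover shallower genes or genes that respond to light.

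The genes to compare, the limits and the rule for named genes were chosen with earlier results of these data known. Named were the 8 highest and 8 lowest folds, the 5 most abundant genes called in each direction, the 4 highest and lowest ratios among genes with dark folds within 1.5 of 1 and over 3 reads in a dark library, the 4 largest opposite folds, the members of the 2 runs with the largest least fold per direction, the genes nearest to the limit, and the 2 highest and 2 lowest multi-mapping genes.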

Additional observations from a re-analysis of the deposited data

Results flagged for a closer look

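Among the named genes, 5 had genotype folds in opposite directions in the dark and in red light, and for each gene both counting intervals excluded 1. The difference between the light conditions was not tested, for want of replicates. The log2 ratio of the genotype fold in red light to that in the dark was 3.92 for Pp1s150_19V6, 3.86 for Pp1s189_93V6, 3.70 for Pp1s60_109V6 and 3.67 for Pp1s48_171V6. These 4 were picked for their opposite folds. The multi-mapping gene Pp1s292_31V6 had 10.95, computed with its 0 reads in the wild-type red light library set to 3 counts.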

How the results depend on the processing

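Scaling by DESeq2 size factors, by totals alone or by totals without the 100 most abundant genes left every count of calls within 1.5 times its value, the 8-fold, dark and red-dependent counts included. The last moved the median log2 fold by -0.10, and with it 2450 genes were higher and 2179 lower. The median log2 fold was -0.11 with totals alone, -0.15 without the 100 most abundant genes, -0.0796 with the authors' RPKM, -0.0225 with at least 20 reads, -0.0662 with at least 200 reads and 0.0146 with no filter on low counts. The number of genes at least 8-fold lower rested on shallow genes, with 82 at 20 reads, 16 at 200 reads, 105 with no filter and 54 over all genes. The number at least 8-fold higher was 351 at 200 reads and 861 with no filter. A fold of at least 1.5 gave 4222 higher and 3964 lower genes, and a fold of at least 3 gave 1545 and 534. With the whole interval past 2-fold 1053 genes were lower. Under an assumed coefficient of variation of 0.2 per library, 2684 were higher and 1774 lower. Requiring 0.5 kb, chosen after seeing the data, gave 2488 and 1570. The additive fit stayed within 1.5 times its counts under DESeq2, limma, no filter and singly mapped genes alone. No named gene changed direction under the 3 scalings, the RPKM or thinning to the smaller read total, but 11 calls changed, 6 lost and 5 gained. Of these, 10 were of the 4 genes nearest to the limit, and Pp1s16_283V6 fell below 50 reads on thinning. No paired analysis was possible because each group holds 1 library, and for the same reason no library could be left out.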

Other observations

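Over the 293 scaffold numbers, read from the identifiers without coordinates, with at least 20 measured singly mapped genes, the median log2 fold of pubs hy2 over wild type in red light lay between -0.51, on scaffold 176 (27 genes), and 0.55, on scaffold 242 (34 genes). In the dark the medians of these 2 scaffolds were -0.30 and 0.58. The largest share of higher genes in red light was on scaffold 309, with 11 of 26 higher in pubs hy2 (42.3%) and 2 lower. The largest share of lower genes was on scaffold 203, with 3 of 24 higher and 7 lower (29.2%). Over all measured singly mapped genes 15.2% were higher and 10.1% lower. These scaffolds were picked for their extreme values.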
